A study of Mus musculus with 74 samples.

Results

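The 44 collagen genes were the rows of the deposited expression tables whose name is Col, a type number, the letter a and a chain number. They made up 44 of 21241 genes in the table of the NSC-medium experiment, and the same 44 were among the 20558 genes of the table of the parallel experiment. All 44 passed the filter on low values in both tables. Their levels were followed through reprogramming of mouse embryonic fibroblasts (MEFs), a cell type that secretes much collagen, in media for neural stem cells (NSCs) or for pluripotent cells.

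Collagens are secreted proteins of 3 chains wound into a triple helix. Fibrillar collagens (types I, II, III, V, XI, XXIV and XXVII) form the fibres of connective tissue. Type IV forms the sheet of basement membranes, type VI forms beaded filaments around cells, and the FACIT collagens sit on the surface of fibrils. Types XV and XVIII, the multiplexins, lie in basement membranes, type VIII forms short-chain networks, type VII anchors epithelia, and types XIII, XVII, XXIII and XXV span the cell membrane. Neural stem cells in culture make little interstitial matrix.

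All cells came from the mouse, and the MEFs, the NSCs and the cells of the NSC-medium experiment carried Sox2-GFP. MEFs were at passage 1 in MEF medium without doxycycline (Dox) or factors, so the comparison with MEFs changes medium, Dox and factors together. Lentiviral factors were under Dox control through M2rtTA. BKM_FNV held Brn4, Klf4, c-Myc and eSox17FNV, an engineered Sox17, while BKM_Sox17 and BKM_Sox2 held Sox17 or Sox2 in its place, and K_FNV held Klf4 and eSox17FNV. These cells were in NSC medium with bFGF and EGF, with Dox at 1 µg/mL up to day 18, and were collected at days 4, 8, 12, 18, 24 and 30. Primary NSCs and the lines iNSC_BKMF and iNSC_KF, made with the factors of BKM_FNV and K_FNV, were at passage 15 in NSC medium. In the parallel experiment, MEFs with Nanog-CreER, Rosa26-tdTomato and Sox2-GFP received Klf4, c-Myc and eSox17FNV in N2B27 medium, and were split at day 8 into NSC medium or LIF/2i, which keeps mouse cells pluripotent through LIF and the inhibitors CHIR99021 and PD0325901. Dox ended there after day 16. Each group had 2 libraries, except BKM_Sox17 day 30 and BKM_Sox2 day 30 with 1 each.

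Promoters are shown for Col1a2 and Col6a1, chains of type I and type VI collagen. Each is the run of 250 bases before the start in the RefSeq promoter table, on the GRCm38.p6 build, 5′ to 3′ on the strand of the gene, with CCAAT in capitals. Col1a2 lies at chr6:4505368-4505617 on the plus strand and Col6a1 at chr10:76726045-76726294 on the minus strand.
Col1a2: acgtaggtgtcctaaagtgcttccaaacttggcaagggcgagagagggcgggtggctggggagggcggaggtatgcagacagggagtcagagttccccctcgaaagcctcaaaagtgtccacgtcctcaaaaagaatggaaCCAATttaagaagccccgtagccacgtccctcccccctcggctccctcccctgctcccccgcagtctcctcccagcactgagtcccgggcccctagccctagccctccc
Col6a1: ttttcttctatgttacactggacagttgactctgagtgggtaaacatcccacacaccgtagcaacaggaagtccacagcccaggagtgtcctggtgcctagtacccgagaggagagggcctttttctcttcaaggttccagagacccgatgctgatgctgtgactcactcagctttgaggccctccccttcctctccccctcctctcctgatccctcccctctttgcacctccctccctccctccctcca
The Col1a2 run holds 1 CCAAT, 109 bases before the start, and the Col6a1 run holds no CCAAT or ATTGG, its form on the opposite strand. RefSeq windows were present for 35 of the 44 members, as 38 windows. CCAAT on either strand was in 13 of these 38 (34.2%), against 11120 of 32851 windows of all genes (33.8%). TATAAA, or TTTATA on the opposite strand, was in 5 of 38 (13.2%), against 4063 of all windows (12.4%). These shares describe the letters in the windows alone.

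The values are whole-number normalized expression values, and read depth is unknown. In each table the highest 10 values of every library were the same (78139 and 87546), and the values just below formed a shared ladder (44404 and then 44402 in the NSC-medium table). Near the top a value is therefore a rank position. The steps there are wide, as from 44404 at rank 11 to 78139 at rank 10 in the NSC-medium table. Fold changes near the top can therefore be compressed or widened. Col1a1 stood at the maximum in 23 of 53 libraries of the NSC-medium table and 17 of 26 of the parallel table. Levels are compared within a gene only, because the values are not stated to be corrected for gene length. BKM_Sox2 day 24 replicate 1, called the doubted library below, correlated with its replicate at 0.0578 and with no library above 0.0865. It was left out, and BKM_Sox2 day 24 is therefore 1 library. Other replicates correlated at 0.949 to 0.961 and 0.937 to 0.955. In such bulk samples, fewer cells of a type and less RNA per cell cannot be told apart. Genes count as called where limma gave an adjusted p (Benjamini-Hochberg over all genes tested) below 0.05 and the log2 fold change reached 1 in either direction, on the log2(value + 2) scale. "Rose" and "fell" are used of such genes.

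**Figure D1:**
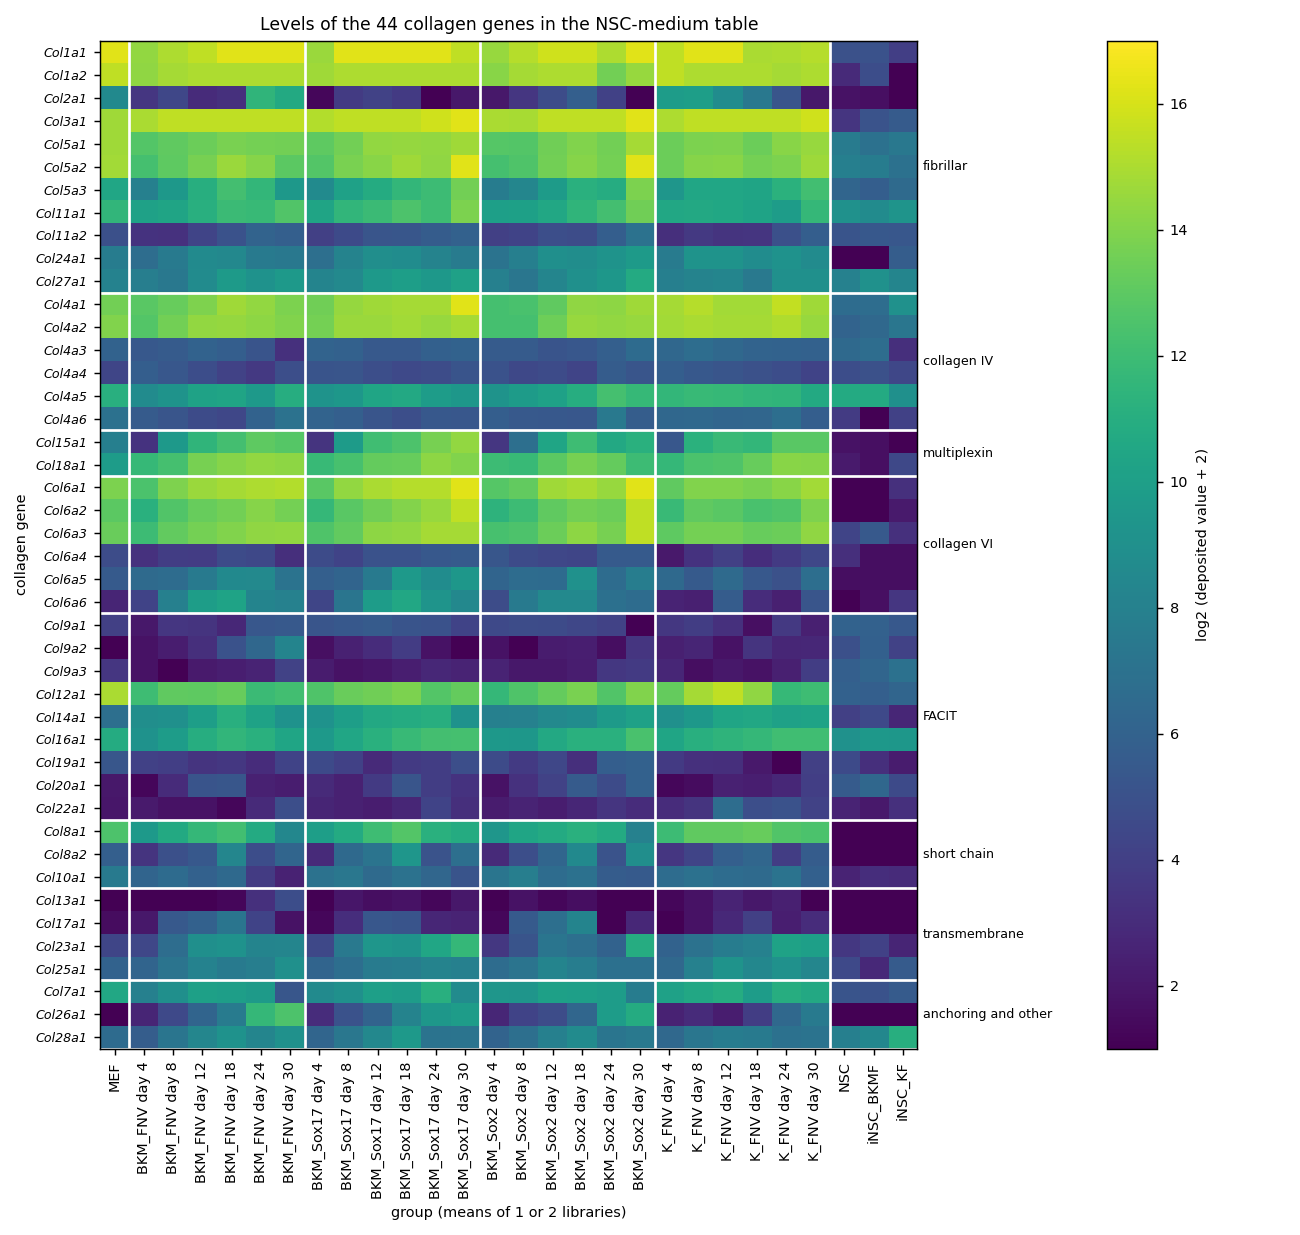
Levels of the 44 collagen genes (rows) in the groups of the NSC-medium table (columns), as colour for the group mean of log2(value + 2). Dark is low: the columns of NSC, iNSC_BKMF and iNSC_KF are dark for most type I, III, VI and multiplexin genes, such as Col6a1, listed at 0 in both NSC libraries, while the columns of cells in reprogramming are bright for these genes at days 8 to 30.

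The comparison of NSCs with MEFs gives the distance that the collagen genes would have to cover. Most collagen genes were lower in NSCs: 27 of 44 collagen genes were lower and 5 higher than in MEFs, where 16.7% and 17.7% of all genes were called. The median log2 fold change was −3.02 over the collagen genes and 0.06 over all genes tested, with the genes listed at 0 entering at the pseudocount. Members listed at 0 in both libraries numbered 9 in NSCs (Col6a1, Col6a2, Col6a6, Col8a1, Col8a2, Col13a1, Col17a1, Col24a1 and Col26a1) and 3 in MEFs (Col9a2, Col13a1 and Col26a1).

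Among fibrillar genes, 9 of 11 fell. Col1a1, a chain of type I collagen, was at 78139 in both MEF libraries and at 27 and 33 in NSCs, a log2 fold change of −11.26 ± 0.21 (SE, n = 2 and 2, limma adjusted p = 1.8e-26). Its partner Col1a2 was at 44402 in both MEF libraries and at 0 and 26 in NSCs. Both type I chains thus left the top of the ladder for the bottom of the range, with no overlap. Col3a1, the chain of type III collagen, was at 26500 in both MEF libraries and at 0 and 57 in NSCs. Col5a2, a type V chain that helps fibrils start, fell from 26505 and 29410 to 218 and 266 (−6.85 ± 0.24, adjusted p = 5.2e-20). Col11a1, a type XI chain known from cartilage, fell least of the fibrillar genes that were called, from 2741 and 3144 to 508 and 585 (−2.42 ± 0.34, adjusted p = 4.6e-07). The 2 groups did not overlap for any of these 5 genes.

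Type IV genes were divided. Col4a1 and Col4a2, the chains of the common basement membrane network, fell from 12147 and 12926 to 99 and 97 (−6.97 ± 0.27, adjusted p = 5.5e-19) and from 13468 and 18428 to 63 and 72 (−7.83 ± 0.19, adjusted p = 8.9e-24). Col4a5, a chain of a rarer type IV network, was at 2112 and 2263 in MEFs and at 1575 and 2004 in NSCs. That difference of −0.30 ± 0.23 was not called (adjusted p = 0.29). Both NSC libraries lay below both MEF libraries for Col4a5, by less than the 2-fold limit. Both multiplexins fell, Col18a1 from 925 in both libraries to 0 and 8, and Col15a1 from 225 and 260 to 4 and 0. In type VI, 5 of 6 genes fell. Col6a1 was at 16291 and 13468 in MEFs and listed at 0 in both NSC libraries, and Col6a3, the long chain of type VI, went from 10066 and 10768 to 8 and 36 (−9.06 ± 0.46, adjusted p = 3.9e-16).

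FACIT genes moved in both directions, with 4 of 9 higher and 3 lower. Col12a1, which coats type I fibrils, fell from 29407 and 34127 to 52 and 73 (−8.96 ± 0.25, adjusted p = 2.8e-22). Col16a1 fell from 1701 and 1904 to 487 and 584 (−1.75 ± 0.20, adjusted p = 1.6e-08) and so remained at an intermediate level. The 5 genes that rose were Col9a1, Col9a2, Col9a3, Col20a1 and Col28a1, of which Col9a2 and Col20a1 were named after their values were seen. Type IX collagen is best known from cartilage. Col9a3 rose from 7 and 13 to 53 and 58 (2.31 ± 0.45, adjusted p = 6.3e-05). Col9a2 went from 0 in both MEF libraries to 23 and 33. Col9a1 went from 18 and 11 to 55 and 70 (1.99 ± 0.64, adjusted p = 0.0091), a call that was lost without MEF replicate 2 (adjusted p = 0.081) or NSC replicate 2 (0.059). Col28a1, a collagen with von Willebrand domains, rose from 76 and 114 to 222 and 255 (1.33 ± 0.36, adjusted p = 0.0021).

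Other fibroblast genes fell beside the collagen genes. Summed over the 8 fibroblast markers, levels were 51648 to 54402 in MEFs and 533 to 648 in NSCs, with Lum, Pdgfrb, Postn and Twist2 listed at 0 in both NSC libraries. Such sums over genes are led by the markers with the largest values. The sum of the 6 neural stem markers was 282 to 315 in MEFs and 106155 to 108162 in NSCs, which goes with both labels. The part of these differences in the collagen result was not tested. Of 27 genes for collagen synthesis and processing, 17 were lower and 1 higher in NSCs, against the same background. Fkbp10, a collagen chaperone, fell by 8.70 on the log2 scale, and Pcolce, which helps cleave procollagen, fell by 7.61. The single increase was Colgalt2, a galactosyltransferase of collagen (5.94). Of 10 collagen receptors and uptake genes, 5 were lower, such as Itga11, a collagen integrin (−9.05), and Ddr1 was higher (2.45).

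Next, the passage 15 lines were set against primary NSCs. In iNSC_BKMF 1 of 44 collagen genes was higher and 1 lower (1.02% and 1.0% of all genes). These were Col1a2, at 0 and 26 in NSCs and 25 and 26 in the line, both within the range of the NSC libraries, and Col4a6, at 12 and 11 in NSCs and listed at 0 in the line (named after its values were seen). Without NSC replicate 2 the count was 5. In iNSC_KF 9 collagen genes were higher and 5 lower, against 4.79% and 4.09% of all genes. Col28a1 was at 1650 and 2624 there (3.12 ± 0.36, adjusted p = 1.3e-07), above every other group of the table. Col4a1 was at 423 and 714 (2.46 ± 0.27, adjusted p = 4.3e-08), and Col4a5 was at 453 and 605 (−1.76 ± 0.23, adjusted p = 1.1e-06). The type IV chains Col4a1 and Col4a5 thus differed from NSCs in opposite directions in this line. When only the compared groups entered the fit, the count fell from 14 to 1, and adjusted p was 0.072 for Col28a1 and 0.10 for both Col4a1 and Col4a5. Col1a1 was at 34 and 27 in iNSC_BKMF and 13 and 14 in iNSC_KF, and Col6a1 was listed at 0 in iNSC_BKMF and at 10 and 5 in iNSC_KF, far below MEFs in both lines.

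At day 4 of Dox many collagen genes were already lower than in MEFs. Over all 4 cocktails 18 of 44 were lower and 5 higher, against 8.33% and 9.79% of all genes, with a median of −0.77 over the collagen genes and −0.02 over all. In BKM_FNV every library lay below both MEF libraries for 29 members and above for 8, where 40.4% of all genes lay below and 33.7% above. This was the largest count below among the cocktails. It was 23 below and 9 above in BKM_Sox17, 26 and 11 in BKM_Sox2, and 20 and 15 in K_FNV, where the share of all genes was not taken. In K_FNV Col4a1 was above MEFs, at 29407 in both libraries against 12147 and 12926. Col15a1, a multiplexin of vascular and muscle basement membranes, was at 225 and 260 in MEFs. It was at 8 and 8 in BKM_FNV, 8 and 9 in BKM_Sox17, 14 and 6 in BKM_Sox2, and 37 and 41 in K_FNV (−4.04 ± 0.39 over the cocktails, adjusted p = 1.3e-09). All 8 libraries were below both MEF libraries. Col12a1 fell from 29407 and 34127 to between 2710 and 9808 (−2.58 ± 0.20, adjusted p = 1.2e-11), and Col8a1, of endothelial and corneal matrix, fell by 2.31 ± 0.18 (adjusted p = 2.7e-11).

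Of the 11 fibrillar genes, 7 fell at day 4. Col5a2 fell from 26505 and 29410 to between 4579 and 11080 (−2.10 ± 0.19, adjusted p = 2.5e-10). Col1a1 fell by 1.5 ± 0.16 from its ceiling (adjusted p = 1.3e-08), to between 19766 and 29407 in the 3 BKM cocktails and 44402 in both K_FNV libraries. The K_FNV libraries were thus the highest of day 4 for Col1a1. Col1a2 was not called (−0.78 ± 0.43, adjusted p = 0.13), nor was Col3a1, which was at 29407 to 44402 and so above its MEF values (0.33 ± 0.55, adjusted p = 0.66). Col3a1 was thus above both MEF values in all 8 libraries, and Col1a1 below both. The spread that limma used is shared over all groups. For Col1a2 and Col3a1 it includes the NSC libraries, at 0 and 26 and at 0 and 57. The SEs and adjusted p-values of Col1a2 and Col3a1 therefore do not measure the spread of the compared libraries alone. Col6a2 fell by 1.48 ± 0.15 (adjusted p = 5.4e-09). Col6a1 fell by 1.05 ± 0.17 (adjusted p = 9.1e-06), a value of −0.91 without MEF replicate 1 and −0.86 when libraries were rescaled by the median of ratios, below the 2-fold limit.

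A few members rose at day 4. Col18a1, the source of endostatin, went from 925 in both MEF libraries to between 2863 and 4213 in all 8 libraries (1.91 ± 0.31, adjusted p = 9.3e-06). Col14a1, a FACIT of dense connective tissue, rose from 120 and 103 to between 209 and 597 (1.95 ± 0.59, adjusted p = 0.0065), a call lost without MEF replicate 2 (adjusted p = 0.068) or with the doubted library (0.32). The multiplexins Col15a1 and Col18a1 thus moved in opposite directions in the same 8 libraries. Col2a1, the cartilage fibril collagen, differed by cocktail: it was at 394 and 382 in MEFs, at 0 to 10 in the BKM cocktails and at 937 and 894 in K_FNV. The sum of fibroblast markers was 11483 to 11574 in BKM_FNV, 9429 to 15969 over the other BKM libraries and 41547 to 41882 in K_FNV. In all 8 libraries Dcn and Lum were above both MEF libraries, and Pdgfra, Pdgfrb, Postn, Prrx1, Thy1 and Twist2 were below both. The sum of 5 epithelial markers was 4300 to 4910 in BKM_FNV against 349 to 374 in MEFs. Krt8 led it, at 4328 and 3824 in BKM_FNV. Cdh1, Cldn4 and Epcam were also above both MEF libraries, and Krt18 was below both, at 103 and 77 against 303 and 252. The part of these markers in the collagen result was not tested. Among enzymes of collagen synthesis 7 of 27 fell and 3 rose, and among receptors 1 of 10 fell and 1 rose. Of all genes 8.33% fell and 9.79% rose, so the receptor counts and the 3 enzymes that rose are near the share of all genes.

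**Figure D2:**
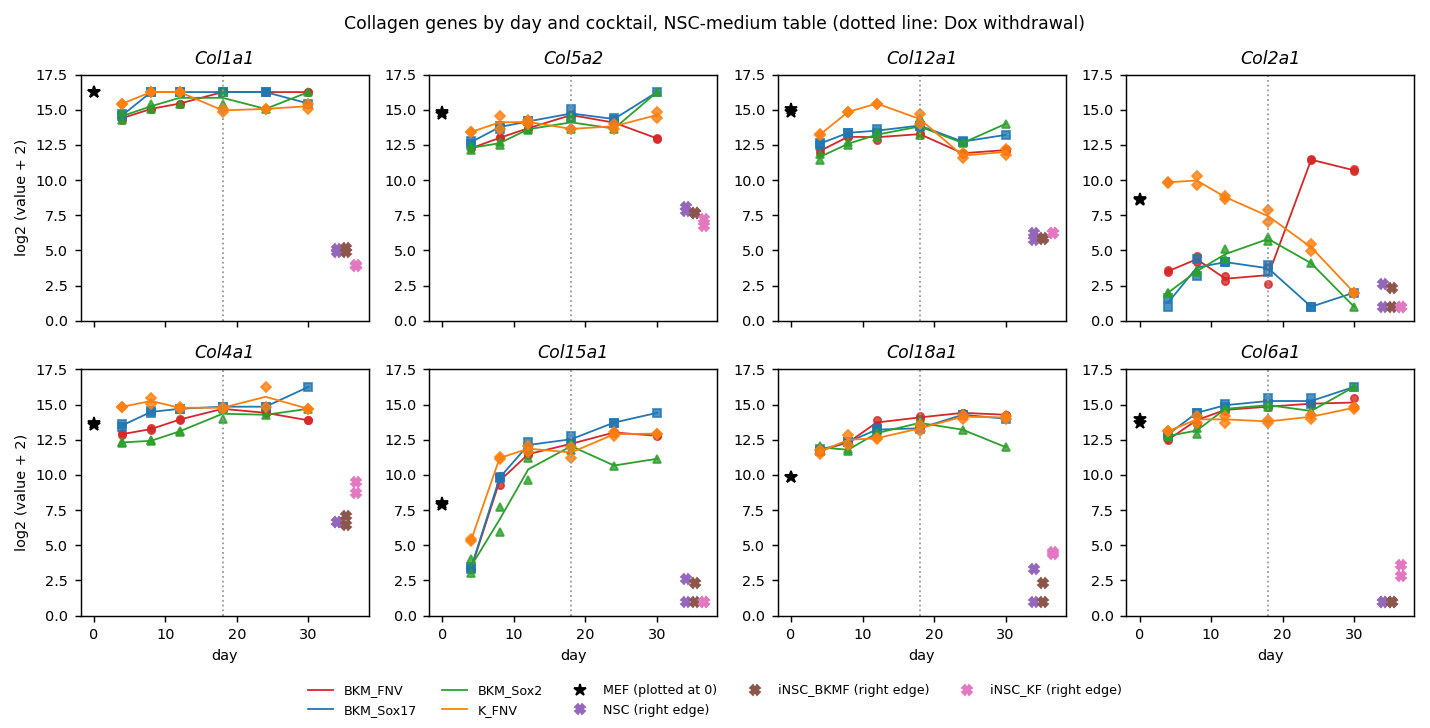
Levels as log2(value + 2) of 8 collagen genes by day in the 4 cocktails of the NSC-medium experiment, with MEFs as stars at day 0 and the neural lines at the right edge. Points are libraries, lines join group means and the dotted line marks the end of Dox. Col15a1 starts at 6 to 14 in the BKM cocktails at day 4 and reaches 3537 to 6993 by day 18, and Col2a1 is apart in K_FNV early and in BKM_FNV late.

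Between days 4 and 18 with Dox most collagen genes rose in the 3 BKM cocktails. In BKM_FNV 30 of 44 were higher and 2 lower at day 18, against 11.4% and 11.5% of all genes, with a median of 1.82 over the collagen genes and 0.00 over all. BKM_Sox17 had 31 higher and 1 lower (9.37% and 9.67% of all genes), and BKM_Sox2 had 27 higher and 1 lower (8.95% and 8.01%). The BKM_Sox2 total of 28 fell to 13 when only its day 4 and day 18 libraries entered the fit. The members higher in each of the 3 numbered 26 of 44, where 5.06% of all genes were. K_FNV had 11 higher and 3 lower (5.4% and 4.97% of all genes), with a median of 0.42. Its total of 14 was 5 with the compared groups alone and 9 with the doubted library. Members higher in all 4 cocktails numbered 10, against 2.08% of all genes, and those higher in at least 1 BKM cocktail 32, against 16% of all genes.

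The multiplexin Col15a1 had the largest rise. In BKM_FNV it went from 8 in both day 4 libraries through 605 and 954 at day 8 and 2971 and 2710 at day 12 to 4278 and 5239 at day 18 (8.89 ± 0.49, adjusted p = 5.0e-14). The rise was 9.14 ± 0.49 in BKM_Sox17, 8.54 ± 0.49 in BKM_Sox2 and 6.23 ± 0.49 in K_FNV (adjusted p = 4.1e-14, 1.7e-13 and 2.5e-10). At day 18 all 8 libraries lay above the MEF values of 225 and 260. Col18a1 rose as well, in BKM_FNV from 3471 and 3207 to 16291 and 18428 (2.38 ± 0.40, adjusted p = 1.1e-05) and in K_FNV from 3502 and 2863 to 11686 and 8744 (1.67 ± 0.40, adjusted p = 0.0017, or 0.053 with the compared groups alone).

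Type VI genes rose together in the BKM cocktails, 5 of 6 in each. Col6a1 in BKM_FNV went from 5961 and 5588 to 29410 in both libraries (2.35 ± 0.22, adjusted p = 5.0e-10), and in BKM_Sox17 from 7645 and 7448 to 44404 and 34130 (2.37 ± 0.22, adjusted p = 6.8e-10). Col6a6, a further type VI chain, went from 18 and 15 to 1048 and 1530 in BKM_FNV (6.10 ± 0.67, adjusted p = 1.1e-08), although MEFs held 6 and 3. In K_FNV no type VI gene was called by limma (2 of 6 had an unadjusted p below 0.05). Col6a1 there was at 8744 in both libraries of day 4 and at 15011 and 13468 at day 18 (0.70 ± 0.22, adjusted p = 0.015), a difference below the 2-fold limit.

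Among fibrillar genes 8 of 11 rose in BKM_FNV. Col5a3, a type V chain, rose from 239 and 251 to 4852 and 4810 (4.29 ± 0.30, adjusted p = 3.5e-12). Col5a2 rose from 4963 and 4852 to 23871 and 26505 (2.36 ± 0.24, adjusted p = 2.2e-09), where the higher library equals the lower MEF library. Col1a1 rose from 23868 and 19766 to the ceiling in both libraries, so its log2 fold change of 1.85 ± 0.21 (adjusted p = 1.6e-08) can be too small or too large. Col1a2 (0.72 ± 0.54, adjusted p = 0.31) and Col3a1 (0.49 ± 0.70, adjusted p = 0.65) were not called, and at day 18 stood at 34127 and 44402 in both libraries. At day 4 they were at 21716 and 19766 and at 34127 and 29407, with no overlap. Their SEs again include the spread of the NSC libraries. Col4a1 rose in BKM_FNV from 7997 and 7282 to 26500 in both libraries (1.80 ± 0.27, adjusted p = 1.9e-06). In K_FNV it was already at 29407 at day 4 and was not called (−0.08 ± 0.27, adjusted p = 0.94).

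Genes of epithelial anchorage and the cell membrane rose as well. Col7a1, of anchoring fibrils below epithelia, rose in BKM_FNV from 298 and 211 to 911 and 1078 (1.97 ± 0.35, adjusted p = 2.7e-05, or 0.44 with the doubted library). Col17a1, the hemidesmosome collagen, was at 0 and 1 in BKM_Sox2 at day 4 and at 96 and 912 at day 18, with adjusted p = 2.4e-09, or 0.075 with the compared groups alone. Col23a1, a transmembrane collagen, rose from 20 and 18 to 645 and 522 in BKM_FNV (4.79 ± 0.47, adjusted p = 1.7e-09), which is above the 18 of both MEF libraries. By day 18 every library of BKM_FNV lay above both MEF libraries for 24 members and below for 13, where 32.1% of all genes lay above and 44.4% below. The 5 epithelial markers summed to 13127 to 20103 there, and the fibroblast markers to 73368 to 81847. Among the fibroblast markers, Dcn, Lum, Pdgfra and Postn were above both MEF libraries, and Pdgfrb, Prrx1, Thy1 and Twist2 were below both. The part of the epithelial and fibroblast markers in the rise was not tested.

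Of the enzymes 9 of 27 rose in BKM_FNV and 1 fell, against 11.4% and 11.5% of all genes. Adamts2, the procollagen N-proteinase, rose by 3.43 on the log2 scale, P4ha2, a prolyl hydroxylase, by 3.17 and Plod1, a lysyl hydroxylase, by 2.85, while Pcolce2 fell by 2.74. Of the receptors 5 of 10 rose, among them Itga11 (3.51) and Ddr1 (2.10). In K_FNV 4 enzymes rose and 1 fell, and of the receptors 3 rose and 1 fell, against 5.4% and 4.97% of all genes.

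The difference between the 2 courses was tested as an interaction of day and cocktail. The change from day 4 to day 18 was smaller in K_FNV than in BKM_FNV for 27 of 44 members and larger for 1, against 7.32% and 7.4% of all genes, with a median of −1.72 over the collagen genes and 0.01 over all. With the doubted library in the fit the total fell from 28 to 13. Col1a1 differed by −2.33 ± 0.29 (adjusted p = 8.9e-07), Col5a2 by −2.14 ± 0.33 (1.7e-05), Col6a2 by −1.97 ± 0.28 (4.1e-06), Col4a1 by −1.87 ± 0.38 (0.00034) and Col6a6 by −5.65 ± 0.95 (4.0e-05). Both ends of the courses entered this difference. At day 4 K_FNV stood higher than BKM_FNV for Col1a1, Col5a2 and Col4a1, and at day 18 Col1a1 and Col5a2 stood lower, with Col1a1 at 34127 and 29407 against 78139 in both BKM_FNV libraries. Col6a6 was at 5 and 3 at day 4 and at 4 and 9 at day 18 in K_FNV.

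Over days 4 to 18 few of all genes, collagen genes among them, were called between BKM_FNV and BKM_Sox17 or BKM_Sox2, which differ in the Sox factor. The low counts are thus not particular to the collagen genes. BKM_FNV against BKM_Sox17 had 1 higher and 1 lower (2.29% and 1.43% of all genes). Col9a1 was lower in BKM_FNV, at 0 to 12 against 27 to 50 in the 8 libraries of each (−2.40 ± 0.32, adjusted p = 2.1e-06). Col17a1 was higher (1.45 ± 0.33, adjusted p = 0.0018), although libraries overlapped and the value was 0.91 with a pseudocount of 16. BKM_FNV against BKM_Sox2 had 3 higher and 1 lower (3.37% and 2.81% of all genes). Col23a1 had the largest increase (1.62 ± 0.24, adjusted p = 4.3e-06), and the others were Col14a1, Col9a1 and Col9a2, the last named after its values were seen. No fibrillar, type IV, multiplexin or type VI gene was called by limma in either comparison (14 and 12 of 25 had an unadjusted p below 0.05).

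K_FNV differed more from BKM_FNV on Dox, with 9 members higher and 5 lower (7.5% and 6.97% of all genes). Col2a1 fell with time in K_FNV yet stayed apart from BKM_FNV: it was at 937 and 894, 1237 and 812, 476 and 407, and 230 and 127 at days 4, 8, 12 and 18, against 4 to 22 in BKM_FNV (5.48 ± 0.23 over the days, adjusted p = 1.8e-17). The fall of Col2a1 within K_FNV had adjusted p = 0.00014, or 0.064 with the compared groups alone. Type IV genes stood out by number, with 4 of 6 higher. Col4a5 was at 2387 to 3539 in K_FNV and at 379 to 1530 in BKM_FNV (2.01 ± 0.11, adjusted p = 1.6e-14). Col8a1 (1.84 ± 0.12, adjusted p = 1.3e-13) and Col12a1 (1.60 ± 0.12, adjusted p = 8.9e-12) were higher in K_FNV, and Col6a6 was lower (−4.68 ± 0.33, adjusted p = 1.5e-12). Type II collagen is the main collagen of cartilage, and 5 chondrocyte markers summed to 494 to 757 in K_FNV and 334 to 692 in BKM_FNV on these days, which overlap. The 4 endothelial markers summed to 3324 to 4823 in K_FNV and 1245 to 2210 in BKM_FNV, and their part in the result was not tested.

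**Figure D3:**
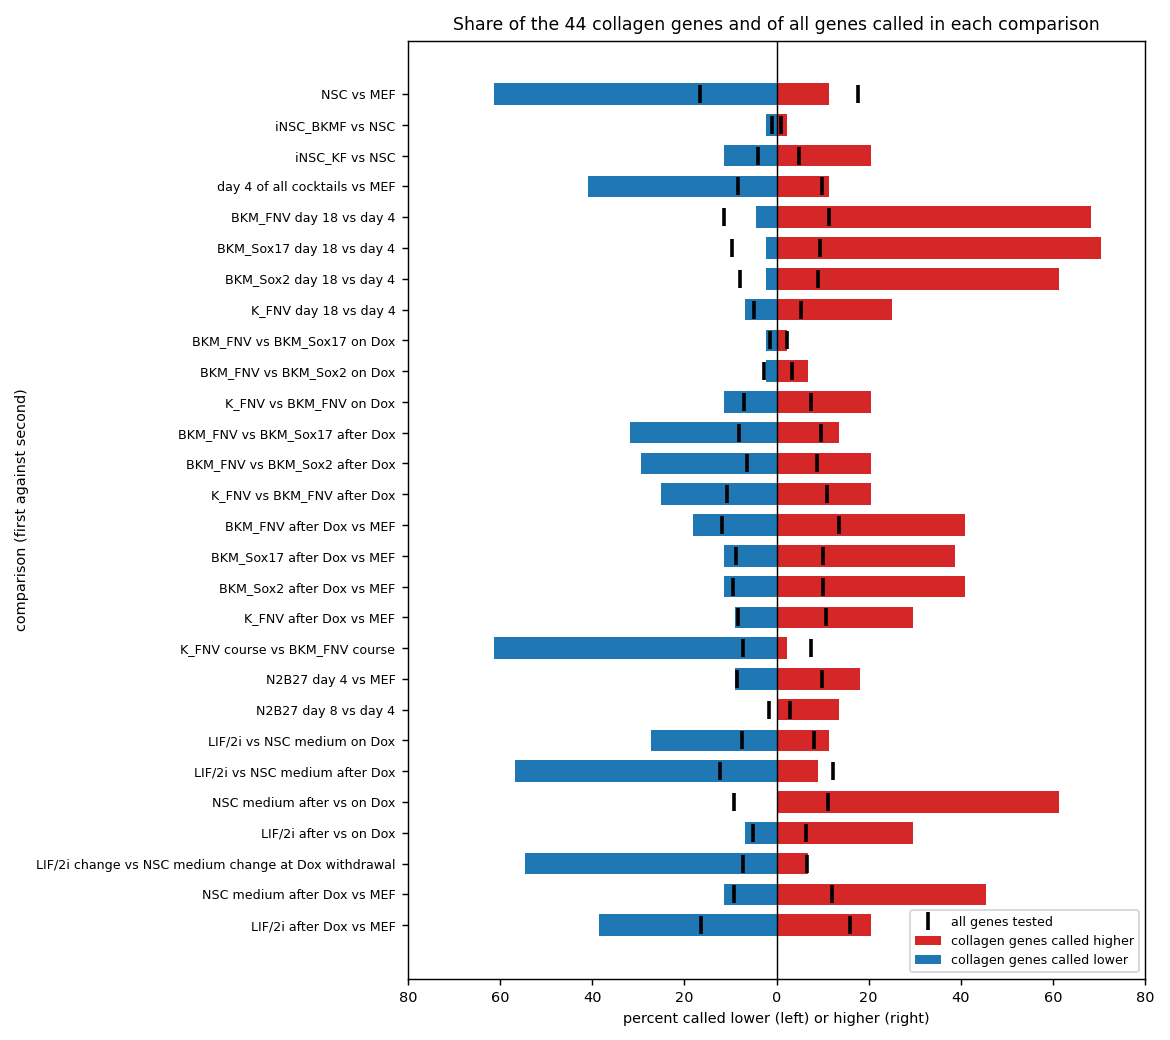
Share of the 44 collagen genes called higher or lower in each comparison (bars, in percent, from 0), with black ticks for the share of all genes. The bars to the lower side reach far past the tick for NSC against MEF, for the difference between the K_FNV and BKM_FNV courses and for LIF/2i against NSC medium after Dox, and those to the higher side for day 18 against day 4 in the BKM cocktails and for NSC medium after against on Dox.

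After Dox ended, at days 24 and 30, Col1a1 was at 34127 to 78139 in all libraries of the 4 cocktails, against 27 and 33 in NSCs. Against MEFs, 18 members were higher and 8 lower in BKM_FNV (13.6% and 11.9% of all genes), 17 and 5 in BKM_Sox17 (10.1% and 8.83%), 18 and 5 in BKM_Sox2 (10.1% and 9.42%), and 13 and 4 in K_FNV (10.7% and 8.38%). The medians were 0.61, 0.75, 0.94 and 0.46, against −0.05, 0.00, 0.00 and −0.03 over all genes. Library names in the sample descriptions change in style between day 18 and day 24, so a batch cannot be told apart from the day, and no test was made across day 18 to day 24. The 4 comparisons share the MEF libraries.

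Both multiplexins were above MEFs in all cocktails. Col18a1 was at 925 in both MEF libraries and at 19770 to 21719 in BKM_FNV (4.48 ± 0.34, adjusted p = 8.4e-12), with 4.28 ± 0.37 in BKM_Sox17, 2.74 ± 0.40 in BKM_Sox2 and 4.25 ± 0.34 in K_FNV (adjusted p = 1.9e-10, 1.9e-06 and 3.9e-11). Col15a1 was at 8132, 8384, 6876 and 7157 in BKM_FNV (4.96 ± 0.43, adjusted p = 8.7e-11) and at 13464, 13464 and 21716 in BKM_Sox17 (6.13 ± 0.46, adjusted p = 1.2e-11). In K_FNV it was at 6876 to 8384 (4.98 ± 0.43, adjusted p = 1.3e-10). Col6a1 was at 29410 to 44404 in BKM_FNV (1.25 ± 0.19, adjusted p = 2.1e-06) and at 34130, 44404 and 78139 in BKM_Sox17 (1.90 ± 0.20, adjusted p = 1.1e-08), all above the MEF values.

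Other members were above MEFs from a low start. Col23a1, at 18 in both MEF libraries, was at 289 to 317 in BKM_FNV (3.92 ± 0.41, adjusted p = 4.0e-09), at 1445, 1360 and 3207 in BKM_Sox17 (6.73 ± 0.44, adjusted p = 7.3e-13) and at 901 to 1377 in K_FNV (5.79 ± 0.41, adjusted p = 2.8e-12). Col14a1 was at 532 to 1245 in BKM_FNV (2.87 ± 0.65, adjusted p = 0.00038, or 0.10 with the doubted library). Col26a1, a short collagen known from testis and ovary, was listed at 0 in MEFs and at 3279 in both day 24 libraries and 5961 and 6068 at day 30 in BKM_FNV. It was at 672 to 916 in BKM_Sox17, 925 and 1821 in BKM_Sox2 and 32 to 371 in K_FNV, so BKM_FNV held the highest level.

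Col12a1 was lower than in MEFs after Dox in all 4 cocktails. Its libraries ran from 3761 to 4695 in BKM_FNV (−2.93 ± 0.22, adjusted p = 3.7e-12) and from 3026 to 4809 in K_FNV (−3.08 ± 0.22, adjusted p = 2.2e-12), and were 6370 and 16288 in BKM_Sox2 (−1.64 ± 0.25, adjusted p = 4.0e-06). Col8a1 was at 1732, 1814, 352 and 320 in BKM_FNV (−2.96 ± 0.20, adjusted p = 6.9e-13) and at 1771 and 254 in BKM_Sox2 (−3.16 ± 0.23, adjusted p = 8.0e-12). In both it was lower at day 30 than at day 24. Col7a1 in BKM_FNV was at 864 and 812 at day 24 and 41 and 33 at day 30 (−3.08 ± 0.30, adjusted p = 1.3e-09). Col1a1 stood at the ceiling in all 4 BKM_FNV libraries and at 34127 to 44402 in K_FNV (−1.10 ± 0.18, adjusted p = 9.0e-06, with −0.98 after rescaling). The sum of neural stem markers in BKM_FNV was 3580 to 3663 at day 24 and 9477 to 9915 at day 30, against 282 to 315 in MEFs. Fabp7 was at 6752 in both day 30 libraries, and Nr2e1 was at 0 or 1 against 482 and 436 in NSCs. Fabp7, Olig2, Pax6, Sox2 and Sox3 were above both MEF libraries. Pluripotency markers summed to 4106 to 4141 at day 24 and 385 to 422 at day 30, against 82 to 96 in MEFs. Epithelial markers summed to 9338 to 9375 and 60 to 66, against 349 to 374.

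Col2a1 set BKM_FNV apart after Dox. It was at 4 and 13 at day 18, at 2820 and 2768 at day 24 and at 1743 and 1567 at day 30, above MEFs (2.46 ± 0.39, adjusted p = 4.4e-06). In BKM_Sox17 it was listed at 0 in both libraries at day 24 and at 2 at day 30, in BKM_Sox2 it was at 15 and 0, and in K_FNV at 43, 29, 2 and 2 (K_FNV against BKM_FNV −7.46 ± 0.32, adjusted p = 3.5e-17). Col9a2, a chain of type IX collagen that pairs with type II in cartilage, was at 78 and 82 at day 24 and 276 and 328 at day 30 in BKM_FNV and at 0 to 10 in the other cocktails. The sum of chondrocyte markers was 1284 to 1504 in BKM_FNV at these days, 449 to 846 in BKM_Sox17, 491 to 667 in BKM_Sox2, 871 to 1111 in K_FNV, 616 to 802 in MEFs and 2846 to 2992 in NSCs. Sox9 led these sums, at 838 to 1175 in BKM_FNV, 409 and 449 in MEFs and 2783 and 2878 in NSCs. Acan was at 2 to 15 in BKM_FNV against 44 and 48 in MEFs, and Matn3 at 120 to 143 against 163 and 151. Matn1 was at 0 or 1 in BKM_FNV, and Hapln1 was at 100 to 289 against 0 and 154 in MEFs. The part of cells with such markers in the Col2a1 result was not tested.

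Between cocktails after Dox, BKM_FNV against BKM_Sox17 had 6 members higher and 14 lower (9.67% and 8.15% of all genes, and a total of 11 with the doubted library in the fit). Col5a2 was at 16291, 18428, 8134 and 7809 in BKM_FNV and at 21719, 19770 and 78139 in BKM_Sox17 (−1.78 ± 0.19, adjusted p = 7.1e-09). Col23a1 differed by −2.81 ± 0.38 (adjusted p = 4.4e-07) and Col16a1 by −1.44 ± 0.16 (adjusted p = 1.9e-08). Col7a1 differed by −2.41 ± 0.28 (adjusted p = 3.6e-08), Col8a1 by −1.39 ± 0.18 (3.5e-07) and Col26a1 by 2.47 ± 0.65 (0.0023), and these calls were lost with the doubted library (0.12, 0.056 and 0.13). Day 30 of BKM_Sox17 rests on 1 library, which was also the one at the ceiling for Col5a2, Col6a1 and Col4a1. BKM_FNV against BKM_Sox2 had 9 higher and 13 lower (8.72% and 6.42% of all genes), with Col15a1 (1.99 ± 0.43, adjusted p = 0.00036) and Col18a1 (1.75 ± 0.34, adjusted p = 0.00014) higher. K_FNV against BKM_FNV had 9 higher and 11 lower (10.9% and 10.8% of all genes). Col8a1 (2.97 ± 0.16, adjusted p = 6.8e-15) and Col7a1 (3.32 ± 0.25, adjusted p = 3.8e-12) were higher in K_FNV, and Col26a1 was lower (−5.17 ± 0.59, adjusted p = 1.4e-08).

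The parallel experiment compared media on 1 cocktail. In N2B27 medium at day 4, 8 of 44 members were higher and 4 lower than in MEFs (9.88% and 8.54% of all genes). The MEF libraries are Sox2-GFP MEFs and not the reporter line of this experiment. Col8a1 rose from 5248 and 6531 to 39802 and 34147 (2.65 ± 0.31, adjusted p = 8.8e-06) and stood at 49058 in both libraries at day 8. Col8a2, its partner chain, rose from 70 and 58 to 552 and 713 (3.26 ± 0.24, adjusted p = 9.0e-08). Both type VIII chains were thus higher in every N2B27 library than in either MEF library. Col11a1 rose from 2567 and 2942 to 8623 and 7922 (1.59 ± 0.20, adjusted p = 1.7e-05) and Col14a1 from 130 and 113 to 747 and 629 (2.48 ± 0.31, adjusted p = 1.8e-05). Col15a1 fell from 233 and 269 to 16 in both libraries (−3.81 ± 0.89, adjusted p = 0.0033).

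From day 4 to day 8 in N2B27 6 members rose and none fell by limma (3.0% and 1.71% of all genes), with 1 lower at an unadjusted p below 0.05. Col26a1 rose from 24 and 26 to 187 and 364 (3.29 ± 0.39, adjusted p = 0.00011, or 0.11 with the compared groups alone). The total of 6 was 2 with the compared groups alone, 3 without N2B27 day 4 replicate 1 and 2 without N2B27 day 8 replicate 2. Col1a1 was at the ceiling in all 4 libraries of N2B27 and in both MEF libraries. The fibroblast markers summed to 83439 to 108322 against 57747 to 59161 in MEFs, but they did not move together. Dcn, Lum and Postn were above both MEF libraries in every N2B27 library. Pdgfra, Pdgfrb, Prrx1, Thy1 and Twist2 were below both, such as Twist2 at 178 to 303 against 2379 in both MEF libraries.

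**Figure D4:**
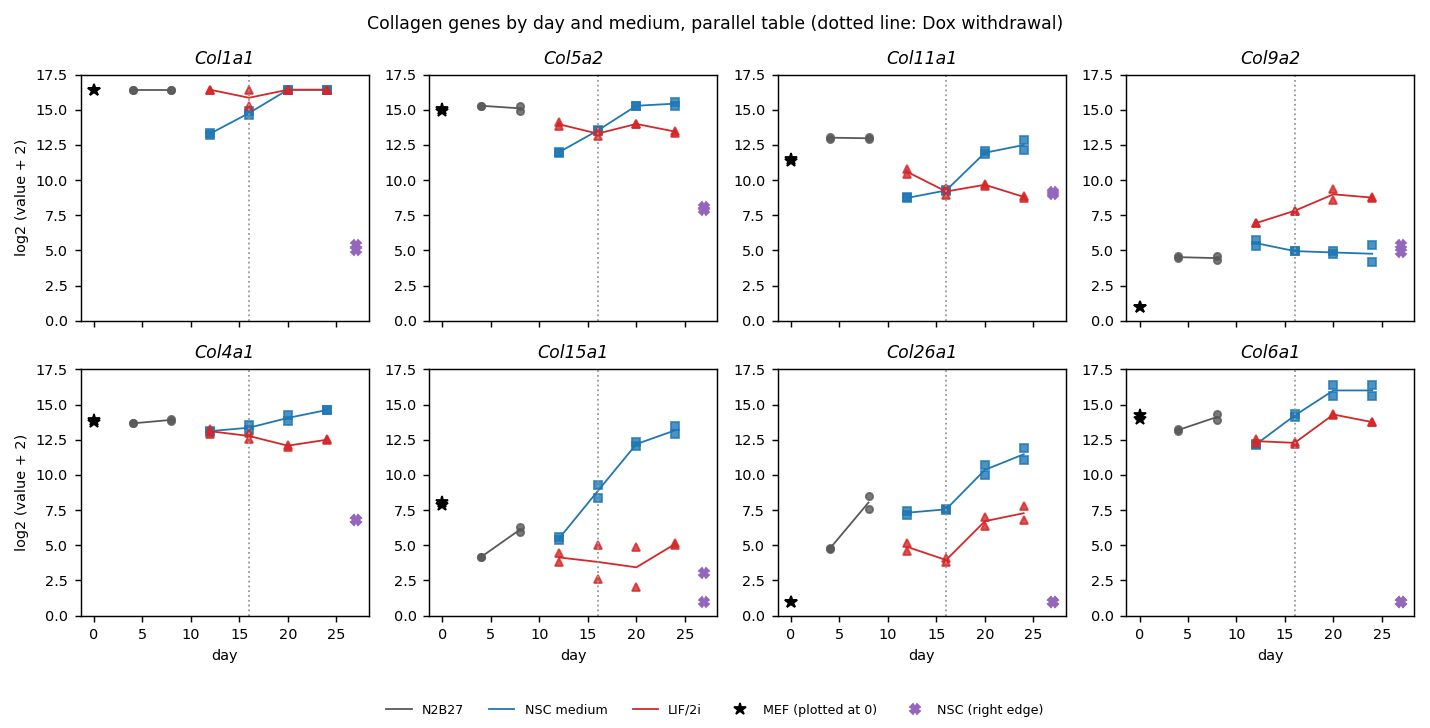
Levels as log2(value + 2) of 8 collagen genes by day in the parallel experiment, for N2B27, NSC medium and LIF/2i, with MEFs as stars at day 0 and NSCs at the right edge. Points are libraries, lines join group means and the dotted line marks the end of Dox. Col15a1 separates the media most, at 7486 and 11248 in NSC medium and 31 and 33 in LIF/2i at day 24, and Col9a2 is higher in LIF/2i.

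After the split, on Dox at days 12 and 16, LIF/2i had 5 members higher and 12 lower than NSC medium (8.07% and 7.45% of all genes). Col1a1 was at 10625 and 9605 and then 24916 and 30887 in NSC medium, and at 39802 to 87546 in LIF/2i (2.10 ± 0.17, adjusted p = 1.5e-07). NSC medium at day 12 held the lowest Col1a1 levels of any cells in reprogramming in this table. Col12a1 was also higher in LIF/2i (2.13 ± 0.18, adjusted p = 3.3e-07), at 3678 to 11669 against 941 to 2269. Col15a1 (−3.17 ± 0.63, adjusted p = 0.00082), Col18a1 (−2.40 ± 0.42, adjusted p = 0.00026) and Col26a1 (−3.02 ± 0.27, adjusted p = 5.4e-07) were lower. The fibroblast markers summed to 20736 to 62343 in NSC medium and 32576 to 43735 in LIF/2i at these days.

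At days 20 and 24, after Dox, 25 of 44 members were lower in LIF/2i and 4 higher, against 12.3% and 12.2% of all genes, with a median of −1.28 over the collagen genes and −0.10 over all. Col15a1 was at 4268, 5080, 11248 and 7486 in NSC medium and at 27, 2, 33 and 31 in LIF/2i (−8.42 ± 0.63, adjusted p = 2.4e-08). Basement membrane chains were also lower, Col4a1 at 4073 to 5898 against 14541 to 24916 (−2.04 ± 0.14, adjusted p = 8.0e-09) and Col4a2 by −2.20 ± 0.11 (adjusted p = 4.1e-10). In type VI, 5 of 6 were lower. Col6a1 was at 13761 to 20427 in LIF/2i and 49062 to 87546 in NSC medium (−1.98 ± 0.17, adjusted p = 1.3e-07), and Col6a6 was at 5 to 10 against 311 to 1591 (−6.24 ± 0.52, adjusted p = 6.7e-08).

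Of the fibrillar genes 5 of 11 were lower in LIF/2i. Col11a1 was at 426 to 852 against 3617 to 7354 (−2.98 ± 0.14, adjusted p = 1.8e-10) and Col5a2 at 10627 to 16249 against 39810 to 49062 (−1.64 ± 0.10, adjusted p = 2.2e-09). Col1a1 stood at the ceiling of 87546 in all 8 libraries, where a difference cannot be seen, and Col1a2 was at 28991 to 39802 in LIF/2i and 39802 in NSC medium. The 4 that were higher in LIF/2i were Col9a2, Col13a1, Col17a1 and Col22a1, of which Col22a1 was named after its values were seen. Col9a2 was at 668, 383, 437 and 421 in LIF/2i and at 16 to 39 in NSC medium (4.06 ± 0.23, adjusted p = 9.9e-10). The sum of 6 pluripotency markers was 87483 to 88010 in LIF/2i at day 24 and 1896 to 6703 in NSC medium, and the fibroblast sum was 25975 to 26711 against 79004 to 102226. Their part in the collagen difference was not tested.

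Enzymes and receptors were lower as well, where 12.3% of all genes were lower and 12.2% higher. Of 27 enzymes 11 were lower in LIF/2i and none higher by limma (1 higher at an unadjusted p below 0.05), such as Tll1, a procollagen C-proteinase (−2.19), Plod2, a lysyl hydroxylase (−1.93), and Bmp1 (−1.81). Of 9 receptors tested 7 were lower, among them Itga2 (−2.69), Itgb1, the shared beta chain of the collagen integrins (−2.59), and Ddr1 (−2.17).

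Within NSC medium, 27 members rose and none fell by limma after Dox ended (11.2% and 9.33% of all genes; 0 were lower at an unadjusted p below 0.05), with a median of 1.47 over the collagen genes and −0.06 over all. Col5a3 rose from 330 to 1422 on Dox to 7487 to 12186 after it (3.94 ± 0.14, adjusted p = 3.0e-11), Col8a2 from 6 to 9 to 179 to 264 (4.54 ± 0.17, adjusted p = 6.8e-11) and Col6a1 by 2.81 ± 0.17 (adjusted p = 9.5e-09). Col15a1 rose by 5.53 ± 0.63 (adjusted p = 3.4e-06), and Col1a1 rose to the ceiling (2.39 ± 0.17, adjusted p = 3.4e-08). Of the enzymes 13 of 27 rose, among them Adamts2 (3.08), and 1 fell. Between the same times in NSC medium the fibroblast markers summed to 20736 to 62343 and then 79004 to 102226. Lum, Pdgfra, Pdgfrb and Postn were higher in every later library, Twist2 was lower (584 to 1012, then 47 to 515), and Dcn, Prrx1 and Thy1 overlapped. The 5 epithelial markers summed to 13184 to 16069 and then 2581 to 7344, and the 3 keratinocyte markers to 2956 to 6620 and then 81 to 593. Krt14 led the keratinocyte sum, at 2836 to 6459 and then 8 to 458, and Trp63 overlapped, at 22 to 144 and 69 to 125. The part of these markers in the rise was not tested. Within LIF/2i 13 members rose and 3 fell (6.4% and 5.16% of all genes), with a median of 0.28. Col6a1 rose there from 4791 to 5900 on Dox to 13761 to 20427 (1.68 ± 0.17, adjusted p = 3.4e-06), and Col5a3 (2.00 ± 0.14, adjusted p = 4.7e-08) and Col26a1 (2.58 ± 0.27, adjusted p = 4.5e-06) rose too. In NSC medium Col1a1, Col5a3, Col6a1, Col8a2 and Col15a1 were already higher at day 16 than at day 12, both on Dox. Col6a1 went from 4549 and 4604 to 17713 and 20427, and Col15a1 from 45 and 39 to 325 and 634. Col5a3 went from 351 and 330 to 1189 and 1422, and Col8a2 only from 6 in both libraries to 9 and 8. Col2a1 went the other way, from 1267 and 1000 to 56 and 63. Day 16 was not tested against day 12. In each medium the day and the end of Dox cannot be told apart.

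The change at the end of Dox differed between the media by the interaction test. It was lower in LIF/2i for 24 members and higher for 3, against 7.36% and 6.51% of all genes, with a median of −1.30 over the collagen genes and −0.02 over all. Col11a1 differed by −3.86 ± 0.20 (adjusted p = 6.2e-09), Col5a2 by −2.53 ± 0.14 (1.3e-08), Col4a1 by −1.74 ± 0.19 (1.3e-05), Col6a2 by −1.33 ± 0.15 (1.3e-05) and Col15a1 by −5.25 ± 0.89 (0.00043). Col9a2 differed in the other direction (1.92 ± 0.32, adjusted p = 0.00036). Because Col1a1 and Col6a1 reached or neared the ceiling in NSC medium, their differences can be too small or too large.

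Set against MEFs, NSC medium after Dox had 20 members higher and 5 lower (12.0% and 9.22% of all genes), with a median of 1.00. At day 24 every library lay above both MEF libraries for 29 members and below for 9, where 31.1% of all genes lay above and 42.2% below. Col15a1 (4.70 ± 0.77, adjusted p = 0.00014), Col18a1 (4.28 ± 0.51, adjusted p = 6.6e-06), Col23a1 (3.73 ± 0.30, adjusted p = 9.0e-08) and Col6a1 (1.88 ± 0.21, adjusted p = 4.2e-06) were higher, and Col12a1 was lower (−3.03 ± 0.23, adjusted p = 4.7e-08). LIF/2i after Dox had 9 higher and 17 lower (15.9% and 16.5% of all genes), with a median of −0.77. At day 24, 26 members lay below both MEF libraries and 15 above, where 45.9% of all genes lay below and 36.1% above. All 6 type IV genes were lower there, led among the common chains by Col4a2 (−1.96 ± 0.14, adjusted p = 1.1e-08) and Col4a1 (−1.55 ± 0.17, adjusted p = 1.4e-06). Col7a1 (−4.07 ± 0.38, adjusted p = 2.5e-07), Col15a1 (−3.72 ± 0.77, adjusted p = 0.00063) and Col11a1 (−2.19 ± 0.17, adjusted p = 3.7e-08) were lower too, while Col18a1 was higher (2.16 ± 0.51, adjusted p = 0.0017). No type I or type VI gene was called by limma (2 of the 6 type VI genes had an unadjusted p below 0.05). Col1a1 stood at the ceiling of 87546 in both MEF libraries and in every LIF/2i library of these days, so it could not be called. Col1a2 was at 28991 to 39802 in LIF/2i against 49058 in both MEF libraries. Col6a1 stood at 13761 to 20427 in LIF/2i and was listed at 0 in the NSC libraries of this table.

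Members that lie side by side in the genome could be compared across the 28 group means of the NSC-medium table. Col4a1 and Col4a2 start on opposite strands of chromosome 8, at 11312826 and 11312805 on GRCm38.p6, so that transcripts from these starts share 22 bases. The whole loci, as RefSeq lists them, share 85 bases. Their log2 group means correlated at 0.982, and at 0.927 over the 25 groups without the neural lines. Col6a1 and Col6a2, on the same strand of chromosome 10, correlated at 0.997 and 0.975, and Col3a1 with Col5a2, on chromosome 1, at 0.927 and 0.722. Col4a5 and Col4a6, head to head on X, correlated at 0.291 and 0.520 only. Col9a1 and Col19a1 correlated at −0.0898. These groups share libraries of origin and a normalization, and the coefficients are descriptions.

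By the same measure the genes most like Col1a2 were Col1a1 (0.985), Col3a1 (0.975) and Col6a3 (0.963), and the least like it Col9a3 (−0.857), Col28a1 (−0.449) and Col20a1 (−0.433). Without the neural lines Col1a1 led at 0.533, and Col9a3 was at −0.115. The coefficients over 28 groups thus rest largely on the neural lines.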

How the data were processed

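Bulk RNA-seq was made from total RNA with oligo(dT) selection, per the labels' protocols, and the submitters' processing notes name Bowtie2 2.0, RSEM and mm10. The authors deposited whole-number normalized expression values, an expression score with no stated unit, in 2 tables that were normalized separately; the scaling was not given in the sources used here. Column sums were nearly equal (17698392 to 17710071 for the NSC-medium experiment, 17848683 to 17866021 for the other), so read depth is unknown. NSC columns were matched to their group only, and 4 columns that match no labelled sample were not used.

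Values were taken as log2(value + 2), keeping the 20760 and 20468 genes that reached 10 in 2 or more libraries. limma 3.58.1 with trend, in R 4.3.3, fitted a mean per group in each table, over all groups, and 28 two-sided contrasts, with Benjamini-Hochberg adjustment within a contrast. Comparisons on Dox averaged days 4 to 18 (12 and 16 for media), and those after Dox days 24 and 30 (20 and 24). BKM_Sox2 day 24 replicate 1 was left out. The analysis was tested on simulated data. Replicates are not stated to be separate cultures, so p-values measure only the spread between these samples. The members and lists were chosen with earlier results of these data known. In each contrast the genes named were the 6 largest called increases and decreases with a mean of at least 100, and a set of members chosen for their roles. Alternatives were a pseudocount of 16, no filter, rescaling by the median of ratios, only the compared groups in the fit, a replicate block, the doubted library included, and each library left out.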

Additional observations from a re-analysis of the deposited data

Results flagged for a closer look

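The change from day 4 to day 18 differed between K_FNV and BKM_FNV by the interaction test for 6 members named in the text (limma adjusted p, all negative values being a smaller rise or a fall in K_FNV, with 2 libraries a group). The difference was −2.33 for Col1a1 (adjusted p = 8.9e-07), −2.14 for Col5a2 (1.7e-05), −1.97 for Col6a2 (4.1e-06), −1.87 for Col4a1 (0.00034), −5.65 for Col6a6 (4.0e-05) and −2.35 for Col28a1 (0.00068). Col28a1 went from 53 and 50 to 492 and 666 in BKM_FNV and from 88 and 81 to 173 and 187 in K_FNV.

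The change at the end of Dox differed between LIF/2i and NSC medium for another 6 members. The difference was −3.86 for Col11a1 (limma adjusted p = 6.2e-09), −2.53 for Col5a2 (1.3e-08), −5.25 for Col15a1 (0.00043), −1.74 for Col4a1 (1.3e-05) and −1.33 for Col6a2 (1.3e-05), each lower in LIF/2i. It was 1.92 for Col9a2 (0.00036). In LIF/2i Col9a2 was at 120 to 225 on Dox and 383 to 668 after it, and in NSC medium at 29 to 52 and then 16 to 39.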

How the results depend on the processing

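Without a filter on low values, and with a replicate block, all 28 counts of members called and all 151 fold changes named kept their verdict. Replicate numbers do not pair the samples: deviations of same-numbered libraries correlated at −0.0756 to 0.0918 and −0.0498 to 0.0876, and the replicate block moved 3 counts by 1 (28 to 27 for BKM_Sox2 at day 18 against day 4, 26 to 27 for LIF/2i after Dox against MEFs and 16 to 15 for LIF/2i after against on Dox). Rescaling by the median of ratios moved no count past the 1.5-fold limit. With a pseudocount of 16 the total was 0 for iNSC_BKMF against NSC, 6 for iNSC_KF against NSC, and for BKM_FNV on Dox 1 against BKM_Sox17 and 2 against BKM_Sox2. With only the compared groups it was 1 for iNSC_BKMF, 1 for iNSC_KF, 13 for BKM_Sox2 and 5 for K_FNV at day 18 against day 4, and 2 for N2B27 day 8 against day 4. With the doubted library it was 1 for iNSC_BKMF, 9 for iNSC_KF, 9 for K_FNV at day 18 against day 4, 11 for BKM_FNV against BKM_Sox17 after Dox and 13 for the difference between courses. Leaving out 1 library gave 1 to 5 for iNSC_BKMF against NSC and 2 to 6 for N2B27 day 8 against day 4. The libraries of BKM_Sox17 day 30, BKM_Sox2 day 30 and BKM_Sox2 day 24 that stand alone were not left out, since their groups would vanish. The causes were not tested. Depth is unknown, and values at the ceiling limit the folds of Col1a1, Col3a1, Col4a1, Col5a2 and Col6a1.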
